A study of Homo sapiens with 31 samples.

Results

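In the mRNA libraries labelled C13* shCEBPB, 110 of 19221 genes with an FPKM value stood at an extreme that no other group reached. FPKM counts the fragments on a gene scaled by the length of the gene and the size of the library, so levels of different genes can be set side by side. A gene was taken as shCEBPB-high when it had FPKM of at least 5 in each of the 8 shCEBPB libraries and under 0.5 in each of the 23 other libraries, and as shCEBPB-low in the reverse case. There were 76 shCEBPB-high and 34 shCEBPB-low genes. These FPKM values chose the genes, so their levels in the 4 groups are given as a description with no test. C13* is a cisplatin-resistant cell line used as an ovarian cancer model, and the study itself questions such use because of the origin of the line. C13* shCEBPB cells (n = 8 libraries) had received a lentiviral shRNA against CEBPB, the gene of the transcription factor C/EBPβ, and C13* shCON cells (n = 7) are the control of that knockdown. A2780 is the parent ovarian carcinoma line (n = 8, untreated), and A2780 OlaR (n = 8) is the strain that became resistant when A2780 was grown in rising amounts of olaparib, an inhibitor of PARP. Whether each line was a clone or a pool, and whether the libraries of a group came from separate cultures, is not given in the sources used here beyond the study's term biological replicates, so p-values measure the spread between these libraries.

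C/EBPβ is a basic leucine zipper factor that binds DNA as a dimer and is known for roles in differentiation, inflammation and metabolism in many epithelia. Genes that are silent in a cell line and strongly expressed in another are often those of cell identity, such as hormones, surface enzymes, homeobox factors and germline genes. Several of the shCEBPB-high genes are textbook markers of placenta, intestine, kidney or embryonic red cells, and several of the shCEBPB-low genes belong to cell junctions, the epithelial basement membrane or the interferon response.

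The promoters of the 6 most strongly expressed shCEBPB-high genes with an entry in the RefSeq promoter table (GRCh38.p14) are shown. These genes were near 0 in the other 23 libraries, and the start site in use in shCEBPB was not measured. The MUC13 window lies inside the span of the gene in GENCODE (chr3:124905442-124953819). Each line holds the 200 bases upstream of the RefSeq start, 5′ to 3′ on the strand of the gene, with motif matches in capitals. The motifs searched on both strands were the cyclic AMP response element (CRE) TGACGTCA, the C/EBP core TTGCNNAA and the TATA box TATAAA.
CGA promoter, chr6:87095107-87095306, minus strand: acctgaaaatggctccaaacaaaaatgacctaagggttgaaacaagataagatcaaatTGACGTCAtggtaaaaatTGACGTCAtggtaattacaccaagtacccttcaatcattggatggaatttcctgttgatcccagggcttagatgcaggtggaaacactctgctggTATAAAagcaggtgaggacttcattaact
MUC13 promoter, chr3:124934752-124934951, minus strand: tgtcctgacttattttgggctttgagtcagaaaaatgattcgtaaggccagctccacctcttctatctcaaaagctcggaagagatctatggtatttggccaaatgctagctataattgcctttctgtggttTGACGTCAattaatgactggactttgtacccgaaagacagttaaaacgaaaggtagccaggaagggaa
PRSS21 promoter, chr16:2817037-2817236, plus strand: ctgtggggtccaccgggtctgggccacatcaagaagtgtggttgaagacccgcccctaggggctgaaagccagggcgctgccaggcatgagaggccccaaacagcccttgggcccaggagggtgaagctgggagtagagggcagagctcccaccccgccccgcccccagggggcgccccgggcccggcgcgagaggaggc
ALPI promoter, chr2:232455953-232456152, plus strand: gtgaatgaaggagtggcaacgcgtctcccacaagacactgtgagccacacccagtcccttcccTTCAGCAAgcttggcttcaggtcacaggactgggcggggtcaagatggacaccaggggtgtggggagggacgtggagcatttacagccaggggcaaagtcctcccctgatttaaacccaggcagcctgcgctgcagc
RNF182 promoter, chr6:13924246-13924445, plus strand: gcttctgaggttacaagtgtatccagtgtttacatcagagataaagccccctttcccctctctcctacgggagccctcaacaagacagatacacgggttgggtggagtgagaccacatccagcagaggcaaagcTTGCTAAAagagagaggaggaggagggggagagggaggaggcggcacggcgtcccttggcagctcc
PDK4 promoter, chr7:95596517-95596716, minus strand: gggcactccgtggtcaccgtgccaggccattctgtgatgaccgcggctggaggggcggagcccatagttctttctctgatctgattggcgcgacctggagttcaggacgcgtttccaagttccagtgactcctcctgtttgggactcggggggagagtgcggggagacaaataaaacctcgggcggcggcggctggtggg
In the CGA promoter a pair of CREs began at -142 and -124 and a TATA box at -29, counted from the start site. The MUC13 promoter had a CRE at -68, ALPI had a C/EBP core at -137 and the first RNF182 promoter had a C/EBP core at -66. PRSS21 and PDK4 held none of these letters in this window. RefSeq promoters were found for 52 shCEBPB-high genes (72 windows of 250 bases upstream) and 24 shCEBPB-low genes (33 windows). The CRE was in 3 of the 72 windows (4.17%), those of CGA, MUC13 and FSTL4, in 1 of the 33 windows of shCEBPB-low genes (3.03%) and in 2.06% of the 21292 windows of all genes. The C/EBP core was in 9.72%, 3.03% and 7.53% of the windows of these sets. A match is a description of letters, and binding was not measured here.

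The libraries did not group by the cell line names in their labels, and this stands before all results. Group means of log2(FPKM + 1) over 19221 genes correlated across genes with r = 0.996 between C13* shCON and A2780 OlaR, 0.890 between C13* shCEBPB and C13* shCON, 0.889 between shCEBPB and A2780 OlaR, and 0.856 between A2780 and A2780 OlaR. Single libraries of C13* shCEBPB correlated with each other at 0.989 to 0.999. Under the same rule, 371 genes divided shCEBPB from shCON, 520 divided it from A2780 and 375 from A2780 OlaR, while 1 gene divided shCON from A2780 OlaR. No gene was shared as high by shCEBPB and shCON against the others, 38 were shared by shCEBPB and A2780, and A2780 alone had 151 high and 87 low genes. The shCON libraries alone had 0 in either direction. The library labelled shCON replicate 1 has A2780 in its cell line field and C13* in its title, and without it the counts stayed at 76 and 34. Whether the lines carry the genotypes of their names was not tested. The FPKM of a library summed to between 417556 and 454578. The steps of low FPKM values gave relative depths of 0.903 to 1.13 in shCEBPB and 0.865 to 1.21 over the 31 libraries. The study states a minimum sequence yield per sample, but the number of reads of each library is not known, so no counting error or detection limit is given.

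**Figure D1:**
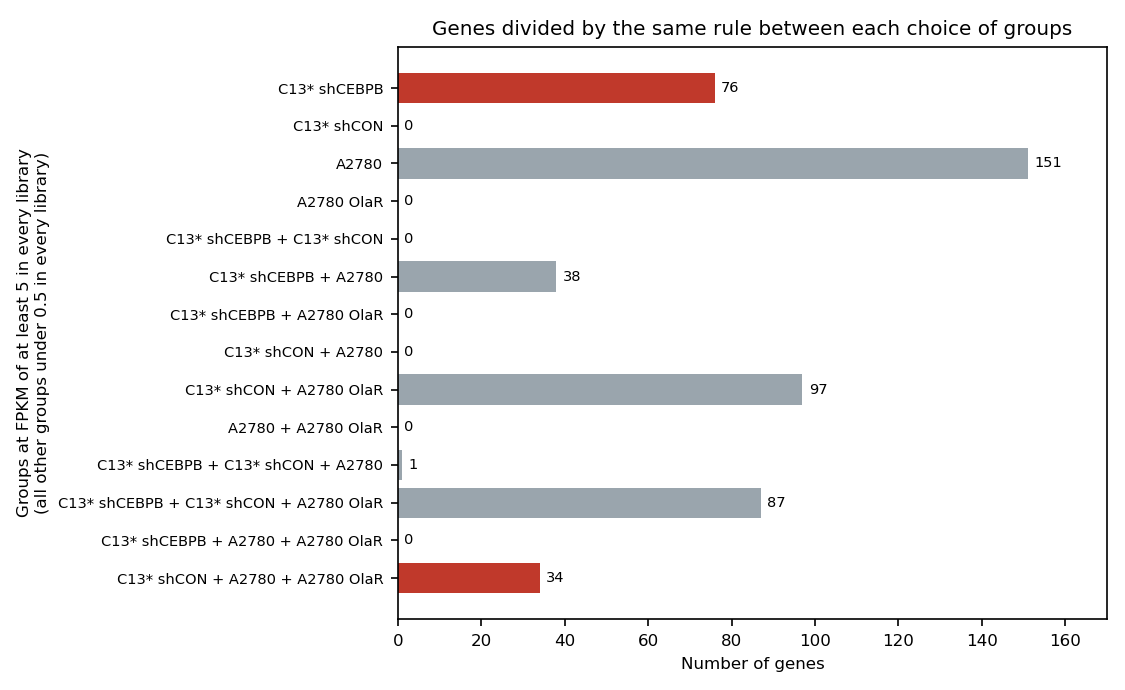
The bars give the number of genes (x axis) with FPKM of at least 5 in every library of the groups named on the y axis and under 0.5 in every library of all other groups; red marks the 76 shCEBPB-high and 34 shCEBPB-low genes. A2780 alone has the longest bar with 151 genes, and no gene is shared by the 2 C13* groups against the 2 A2780 groups.

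CEBPB itself, the targeted gene, is no member of either set and was tested. It has 1 exon on chr20:50190830-50192668 (hg38) and shares 231 bp with CEBPB-AS1, and the strand setting of the counting is not known. CEBPB lay between 30.2 and 58.7 FPKM in shCEBPB, with a mean of 47.1. The means were 85.8 in shCON, 99.7 in A2780 and 111.8 in A2780 OlaR, so that the shCEBPB mean was 54.9%, 47.3% and 42.2% of them. The lowest library of any other group was shCON replicate 4 at 75.2 FPKM, and no shCEBPB library reached it. The log2 fold change on the log2(FPKM + 1) scale was -0.87 (SE 0.10) against shCON, -1.09 (SE 0.09) against A2780 and -1.25 (SE 0.09) against A2780 OlaR, with adjusted p of 6.21e-10, 1.13e-12 and 4.39e-14 from limma. An exact permutation test, two-sided, gave p = 0.0001554 in each of the 3 comparisons, the smallest value these group sizes allow. The shCEBPB libraries numbered 1 to 3 had 30.2 to 42.1 FPKM and those numbered 4 to 8 had 47.7 to 58.7. A fit of only the libraries numbered 1 to 3 gave log2 fold changes of -1.29, -1.47 and -1.41 in the same order. A fit of only those numbered 4 to 8 gave -0.60, -0.86 and -1.15. The transcript remained detected in every shCEBPB library.

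The limma fit of all 31 libraries on log2(FPKM + 1) called 84.3% of 12967 genes tested between shCEBPB and shCON (38% higher and 46.4% lower in shCEBPB), 88% against A2780 (37.2% and 50.8%) and 84.8% against A2780 OlaR (39.2% and 45.6%). Calls in the same direction against all 3 groups came to 2697 genes higher in shCEBPB (20.8%) and 3688 lower (28.4%), 49.2% in all. In 14% of the genes tested every shCEBPB library was above every other library, and in 19.5% every one was below. All 110 genes passed the expression filter of the fit by construction, so no count of calls among them is given. They lie in a background in which most genes differed, and the 3 comparisons share the shCEBPB libraries. In libraries of bulk RNA, fewer cells with a transcript and less of it per cell cannot be told apart.

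**Figure D2:**
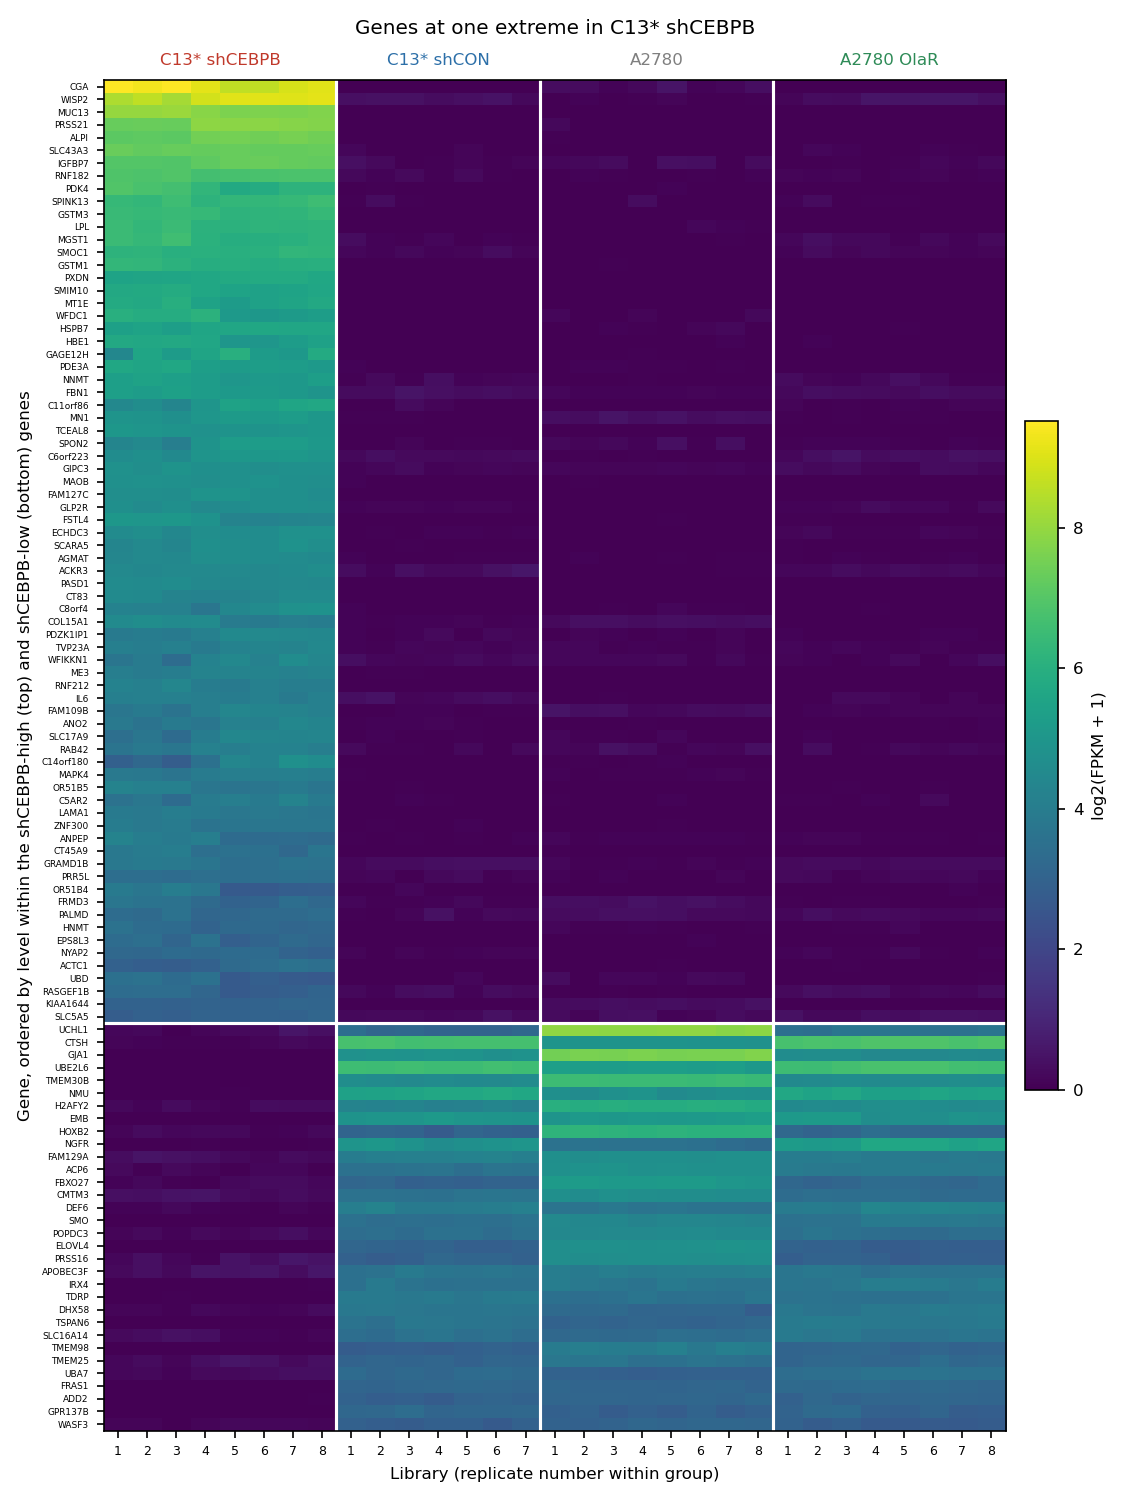
Each row is a gene, each column a library, and the colour gives log2(FPKM + 1); 74 shCEBPB-high genes stand above the white line and 32 shCEBPB-low genes below it, in order of level. The shCEBPB columns are bright only in the upper block, and in the lower block A2780 differs in level from shCON and A2780 OlaR for genes such as UCHL1, GJA1 and HOXB2.

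Starting from the 7922 genes with at least 5 FPKM in every shCEBPB library, 165 were under 0.5 in all shCON libraries, 227 in all A2780 libraries and 166 in all A2780 OlaR libraries, and 76 in all 3 groups. Starting from the 7021 genes under 0.5 in every shCEBPB library, 206, 293 and 209 had at least 5 FPKM in these groups, and 34 in all 3. The shCEBPB-high genes had mean levels from 6.90 to 561 FPKM in shCEBPB (median 22.1), with 8 genes at 100 or more, 34 from 20 to 100 and 34 below. SMIM10, MT1E, TCEAL8, CT83 and RNF212 were listed at 0 in all 23 other libraries, and the highest other library was under 0.1 FPKM in 30 of the 76 genes. The shCEBPB-low genes had mean levels over the other groups from 6.60 to 86.3 FPKM (median 14.4). GJA1, UBE2L6, TMEM30B, EMB, ELOVL4, TSPAN6, TMEM98 and GPR137B were listed at 0 in all 8 shCEBPB libraries, and 16 of the 34 genes were under 0.1 in each of them.

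Among hormones and secreted factors, the highest shCEBPB-high gene was CGA (chr6:87085498-87095106), the common alpha subunit of chorionic gonadotropin, luteinizing hormone, follicle-stimulating hormone and thyrotropin, whose promoter with its pair of CREs is printed above. CGA had 387, 558 and 734 FPKM in the lowest, median and highest shCEBPB library, was listed at 0 in every shCON and A2780 OlaR library, and had 0.0682, 0.185 and 0.407 in A2780. The groups were apart by a wide margin, and A2780 was the only other group with a CGA value above 0. WISP2 (now CCN5), a secreted matricellular protein, had 297, 500 and 562 FPKM in shCEBPB, at most 0.370 in shCON, 0.0980 in A2780 and 0.462 in A2780 OlaR. IGFBP7, a secreted protein of the insulin-like growth factor binding family, had 121, 145 and 160 FPKM in shCEBPB and at most 0.306 in any other library, and it shares 260 bp of exon with POLR2B on the opposite strand. SMOC1, a calcium-binding matrix protein that antagonizes BMP signals, had 63.0, 67.2 and 76.1 FPKM against at most 0.237. The WAP-type protein WFDC1 had 31.7, 48.8 and 68.2 FPKM against at most 0.152, and the protease inhibitor SPINK13, which shares 498 bp with an opposite transcript, had 70.2, 80.1 and 94.2 against at most 0.233. Each of these secreted factors was at 31.7 or more FPKM in all 8 shCEBPB libraries. IL6, a cytokine of inflammation and a known C/EBPβ target, was among the lower of the shCEBPB-high genes with 13.8, 16.3 and 16.8 FPKM, against at most 0.374 in shCON, 0.0497 in A2780 and 0.194 in A2780 OlaR. The subunits of its receptor, IL6R and IL6ST, had medians of 3.25 and 11.8 FPKM in shCEBPB and 3.57 to 5.42 and 10.3 to 17.1 in the other groups. IL6, IL6R and IL6ST, like all genes outside the leading 20 of a set that are named without a fixed list, were chosen after their values were seen.

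**Figure D3:**
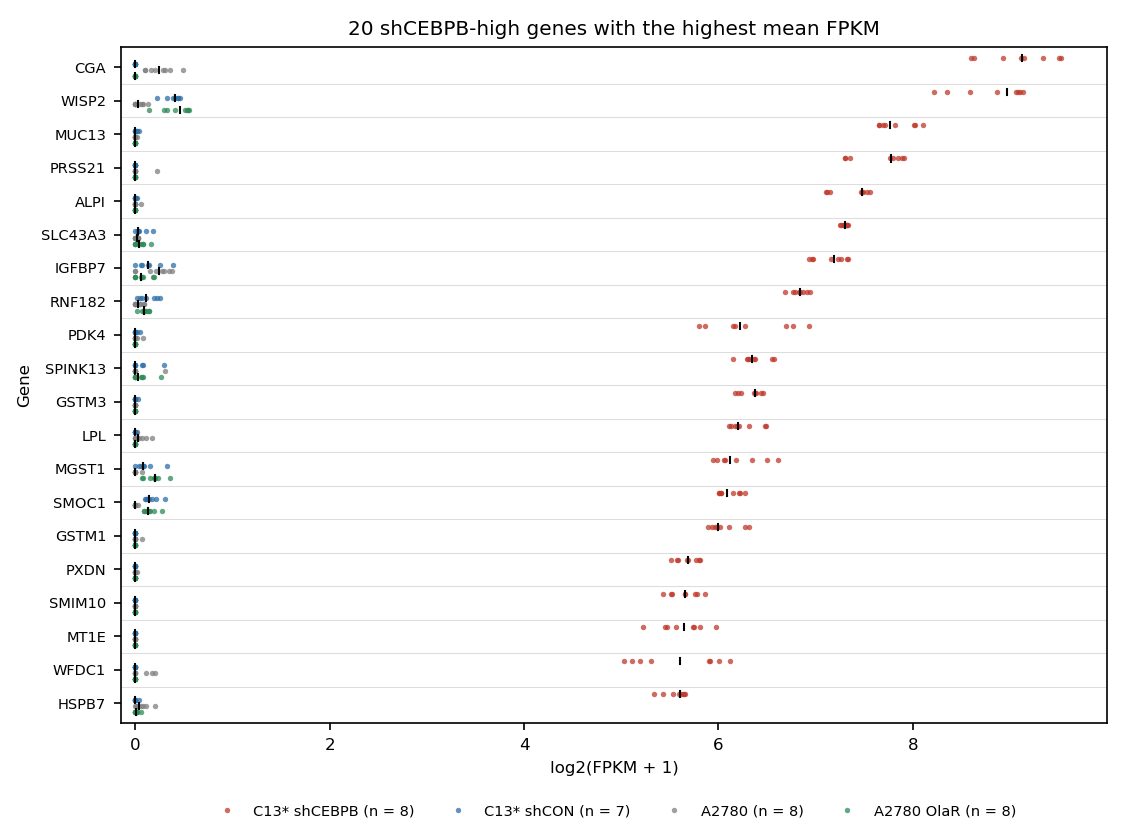
Points are libraries and black ticks group medians of log2(FPKM + 1) (x axis) for the 20 shCEBPB-high genes with the highest mean FPKM (y axis), coloured by group. All red points lie to the right of all others, and the other 3 groups pile up at or near 0.

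Genes of the absorptive and glandular cell surface formed a further group. MUC13, a membrane mucin of intestinal epithelium, had 200, 217 and 274 FPKM in the lowest, median and highest shCEBPB library and at most 0.0230 in the other 23. ALPI, the intestinal alkaline phosphatase, had 137, 177 and 187 FPKM against at most 0.0436. PRSS21, a membrane-anchored serine protease best known from testis, had 157, 219 and 239 FPKM, was at 0.166 in a single A2780 library and was listed at 0 in the other 22. ALPI is near-identical in sequence to the placental phosphatases ALPP and ALPPL2, whose reads the counting could have split. ALPP had a median of 185 FPKM in shCEBPB against 2.36 in shCON, 1.02 in A2780 and 6.76 in A2780 OlaR, and ALPL, the tissue-nonspecific phosphatase, had 579 against 0, 1.35 and 0. ALPPL2 had medians of 8.16 FPKM in shCEBPB, 0.105 in shCON, 24.2 in A2780 and 0.377 in A2780 OlaR. Brush border and gut or kidney genes were also found lower in the set: the peptidase ANPEP (8.78, 11.6 and 18.1 FPKM), the scaffold-binding protein PDZK1IP1 (14.2, 18.3 and 21.8) and the receptor GLP2R (21.5, 25.5 and 25.7). Their highest other libraries had 0.111, 0.190 and 0.214 FPKM. Other genes of that kind did not share the pattern, since VIL1 and DPP4 were at most 0.274 and 0.0927 FPKM in any library, and the gut factor CDX2 was listed at 0 in shCEBPB against medians of 2.03 in shCON and 2.16 in A2780 OlaR. SLC5A5, the iodide transporter of thyroid, was the lowest of the 76 genes with 6.02 to 7.75 FPKM.

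Genes of detoxification and lipid or amine metabolism were the next group. GSTM3 and GSTM1 are glutathione S-transferases of the mu class that lie 24893 bp apart on chromosome 1. GSTM3 had 70.9, 81.9 and 86.8 FPKM in shCEBPB and at most 0.0213 in any other library. GSTM1, a gene with a common deletion in human populations, had 58.4, 63.0 and 78.4 FPKM, was listed at 0 in all shCON and A2780 OlaR libraries and was at most 0.0481 in A2780, and it shares 559 bp of exon with GSTM2. The neighbouring GSTM4 divided the groups otherwise, with medians of 39.0 FPKM in shCEBPB, 22.2 in A2780, 0.282 in shCON and 0.569 in A2780 OlaR, whereas GSTM2 and GSTM5 were at most 1.30 and 0.0460 in any library. MGST1, the microsomal transferase, had 60.3, 68.7 and 97.0 FPKM against at most 0.280. PDK4, the kinase that shuts off pyruvate dehydrogenase in fasting, had 54.6, 73.7 and 121 FPKM against at most 0.0585. LPL, the lipase that frees fatty acids from lipoproteins, had 67.9, 72.5 and 88.8 FPKM against at most 0.126. Enzymes that break down or methylate amines were in the same set, with medians of 38.4 FPKM for NNMT, 26.2 for MAOB, 8.57 for HNMT and 22.5 for AGMAT, and 17.5 for the mitochondrial malic enzyme ME3. None of these enzymes was above 0.305 FPKM in another group. SLC43A3, a purine transporter, had 151, 157 and 161 FPKM against at most 0.134, and 1349 bp of its exons are shared with a transcript on the same strand. MT1E, a metal-binding metallothionein of a near-identical family, had 36.3, 49.2 and 61.9 FPKM and was listed at 0 elsewhere.

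Matrix genes included PXDN, a peroxidase that crosslinks collagen IV, with 44.7, 50.4 and 55.1 FPKM in shCEBPB and a single value of 0.00815 among the other 23 libraries. FBN1, which forms microfibrils, had 29.6, 36.3 and 41.9 FPKM and was above 0 in every other library, at 0.0558 to 0.398. COL15A1 and the laminin chain LAMA1, both of basement membranes, had medians of 19.1 and 13.5 FPKM, and SPON2 had 30.8. RNF182, a brain-enriched E3 ubiquitin ligase, had 102, 113 and 122 FPKM against at most 0.188, and the small heat shock protein HSPB7 of heart and muscle had 39.3, 47.6 and 49.4 against at most 0.150. ACTC1, the cardiac actin, had 5.93 to 11.1 FPKM. The transcription regulators MN1 and ZNF300 had medians of 31.8 and 12.4 FPKM. Receptors and signalling genes were PDE3A (33.9, 39.0 and 49.7), the chemokine scavenger ACKR3 (20.4, 21.2 and 24.3), MAPK4 (11.6, 15 and 16.3) and the complement C5a receptor C5AR2 (9.02, 14.2 and 18.0). The other C5a receptor, C5AR1, had a median of 0.988 FPKM in shCEBPB and 0.341 to 0.489 in the other groups. Other shCEBPB-high genes, namely FSTL4, ECHDC3, SCARA5, WFIKKN1, ANO2, SLC17A9, GRAMD1B, PRR5L, FRMD3, PALMD, NYAP2 and KIAA1644, had medians between 7.07 and 24.6 FPKM.

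Some genomic neighbourhoods held several shCEBPB-high genes. In the beta-globin region of chromosome 11, HBE1, the embryonic beta-like globin, had 31.1, 45.9 and 52.6 FPKM in shCEBPB and at most 0.0633 elsewhere. The olfactory receptor genes OR51B5 and OR51B4 next to it had 11.7, 13.1 and 18.3 and 5.44, 9.31 and 15.4 FPKM, against at most 0.0366 and 0.114. The annotated span of HBE1 (chr11:5268345-5505652) runs over both of them. By exons, OR51B4 shared 0 bp with any other gene, whereas OR51B5 and HBE1 shared 127 and 781 bp with a transcript on the same strand. Reads in those shared bases cannot be assigned with certainty. The fetal gene HBG2 had 0.581 to 1.72 FPKM in shCEBPB and was listed at 0 in all other libraries, and HBB, HBD and HBG1 were at most 0.155 anywhere. OR51B2 and OR51I1 showed 0.412 to 1.56 and 0.101 to 1 FPKM in shCEBPB and at most 0.0536 elsewhere, whereas OR51V1, OR52A1 and OR52A5 were listed at 0 in all 31 libraries. On chromosome 1, EPS8L3, an actin regulator of epithelia, lies 9042 bp from GSTM3 and had 6.38, 8.26 and 11.2 FPKM against at most 0.0783. On the X chromosome SMIM10 and FAM127C (now RTL8B) lie 28040 bp apart, with 42.1, 49.4 and 57.1 and 24.1, 25.2 and 28.6 FPKM. FAM127A and FAM127B, of the same retrotransposon-derived family, were expressed in every library, with medians of 78.6 and 54.4 FPKM in shCEBPB and 21.7 to 26.4 and 30.9 to 40.3 in the other groups. SLC43A3, shCEBPB-high, and UBE2L6, shCEBPB-low, lie 124076 bp apart on chromosome 11 and stood at opposite extremes.

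Chromosome X held 8 of the 76 shCEBPB-high genes (10.5%) against 4.14% of all genes placed, and 1 of the 34 shCEBPB-low genes. Several of the 8 are cancer-testis antigens, which are usually expressed in germ cells. CT83 had 17.8, 21.0 and 23.2 FPKM in shCEBPB and PASD1 had 20.1, 21.3 and 24.0, with CT83 listed at 0 in all other libraries and PASD1 at most 0.0149. GAGE12H and CT45A9 had 20.3, 41.5 and 62.7 and 8.41, 11.4 and 15.3 FPKM, and both belong to families of near-identical copies, so the member cannot be assigned with certainty. TCEAL8 had 27.2, 29.5 and 32.2 FPKM and was listed at 0 elsewhere. Among non-members of the fixed list of cancer-testis antigens 4 genes could be tested, and MAGEA1 was higher against all 3 groups, with a median of 49.3 FPKM in shCEBPB, 0 in shCON, 1.41 in A2780 and 0 in A2780 OlaR.

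Among the shCEBPB-low genes were several of ubiquitin and ISG15 conjugation, a grouping made after the values were seen that carries no test. UCHL1, a ubiquitin hydrolase of neurons, had at most 0.46 FPKM in shCEBPB, 7.19, 7.94 and 9.84 in shCON, 228, 241 and 245 in A2780 and 9.94, 11.2 and 12.0 in A2780 OlaR. The A2780 libraries thus lay far above shCON and A2780 OlaR, and shCEBPB below all. UBE2L6 (chr11:57551656-57568284), the conjugating enzyme that passes the interferon-induced ISG15 to its substrates, was listed at 0 in all shCEBPB libraries and had 90.5, 94.6 and 97.6 FPKM in shCON, 32.8, 39.0 and 40.9 in A2780 and 92.2, 99.5 and 110 in A2780 OlaR. UBA7, which activates ISG15 in the step before, was also shCEBPB-low, with at most 0.287 FPKM in shCEBPB and 6.10 to 11.3 elsewhere. The ligases HERC5 and HERC6 are no members but were at most 0.102 and 0.0601 FPKM in shCEBPB, against 0.698 to 4.53 and 4.01 to 13 elsewhere. The deconjugating protease USP18 had 1.02 to 2 FPKM in shCEBPB and 9.74 to 24.5 elsewhere. ISG15 itself did not follow them, with 12.1 to 27.7 FPKM in shCEBPB, 11.2 to 13.3 in shCON, 73.8 to 89.5 in A2780 and 8.97 to 12.2 in A2780 OlaR. DHX58, a sensor of viral RNA, was shCEBPB-low with at most 0.225 FPKM against 6 to 14.8, and its relatives IFIH1 and DDX58 (now RIGI) had 0.287 to 0.552 and 0.203 to 0.334 in shCEBPB against 1.57 to 8.36 and 2.24 to 4.73. APOBEC3F, an antiviral deaminase, had 0.166 to 0.485 FPKM in shCEBPB and 10.0 to 16.6 elsewhere. UBD, an interferon-inducible ubiquitin-like protein, stood on the other side as shCEBPB-high with 5.38, 7.64 and 10.9 FPKM, and 722 bp of its exons are shared with GABBR1 on the same strand and 836 bp with OR2I1P on the opposite strand.

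**Figure D4:**
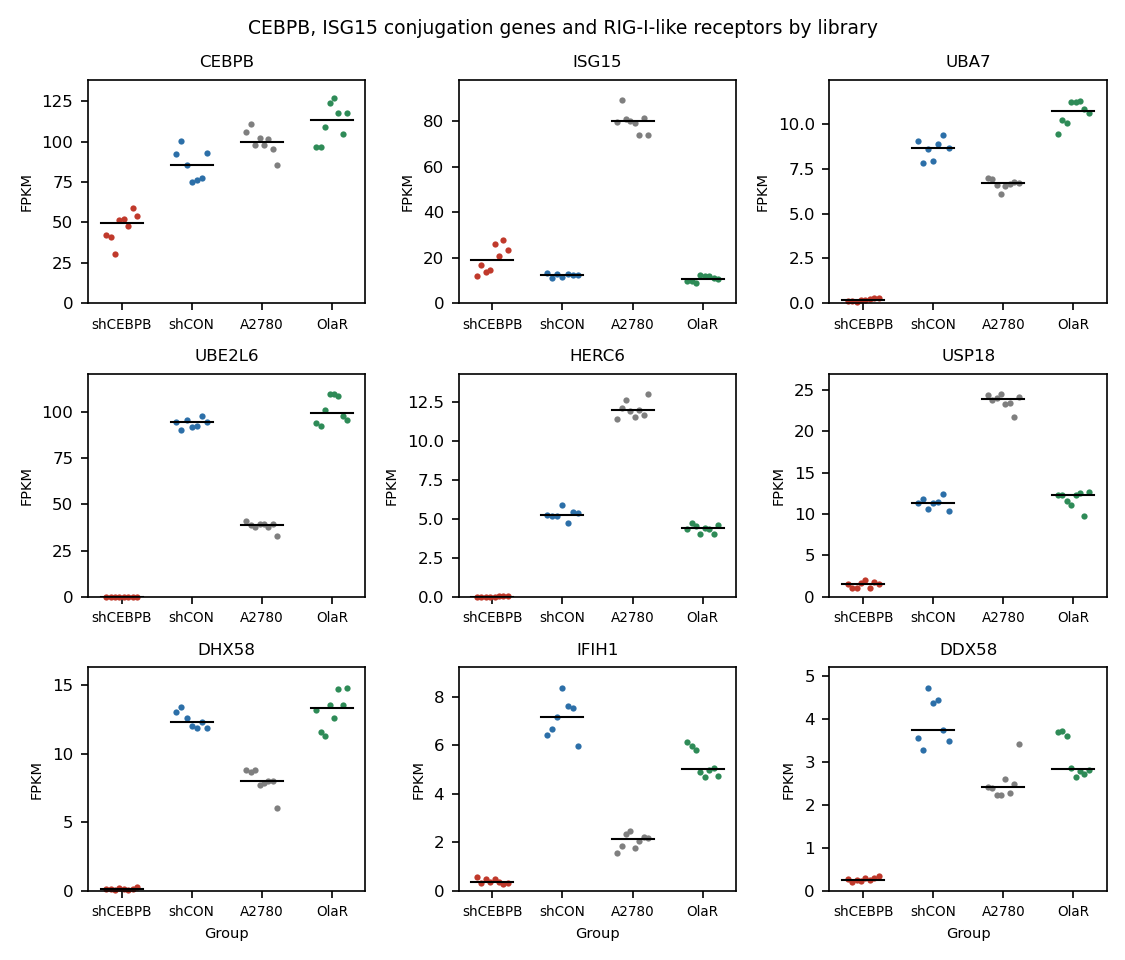
Each panel plots the FPKM (y axis, from 0) of a gene in every library by group (x axis; OlaR is A2780 OlaR), with black lines at the group medians. UBE2L6 is at 0 in all 8 shCEBPB libraries and at 32.8 or more elsewhere, ISG15 overlaps between shCEBPB and shCON, and CEBPB in shCEBPB stays between 30.2 and 58.7.

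Genes of cell junctions, membranes and receptors were also in the shCEBPB-low set. GJA1, the gap junction protein connexin 43, was listed at 0 in shCEBPB and had 25.4, 28.2 and 29.3 FPKM in shCON, 181, 194 and 211 in A2780 and 21.0, 22.3 and 24.4 in A2780 OlaR. TMEM30B, a subunit of lipid flippases, and EMB, a chaperone of lactate transporters, were listed at 0 in shCEBPB and had 21.4 to 90.7 and 24.6 to 39.7 FPKM elsewhere. FRAS1, a basement membrane protein, was at most 0.00848 FPKM against 7.14 to 9.23. NGFR, the low-affinity neurotrophin receptor, had at most 0.0449 FPKM in shCEBPB and 24.0 to 31.8 in shCON, 8.44 to 11.3 in A2780 and 34.8 to 50.0 in A2780 OlaR. The neuropeptide NMU had at most 0.0332 FPKM against 22.5 to 55.5. SMO, the transducer of Hedgehog signals, was at most 0.0138 FPKM in shCEBPB and had 9.65 to 21.1 elsewhere. Of the other Hedgehog genes measured, PTCH1, GLI2, GLI3 and SUFU were not absent with it, with medians of 3.39, 3.77, 3.59 and 7.98 FPKM in shCEBPB. GLI1 was near 0 in shCEBPB (0.0884 to 0.249) and was high in A2780 alone (median 13.6, at most 0.283 elsewhere).

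**Figure D5:**
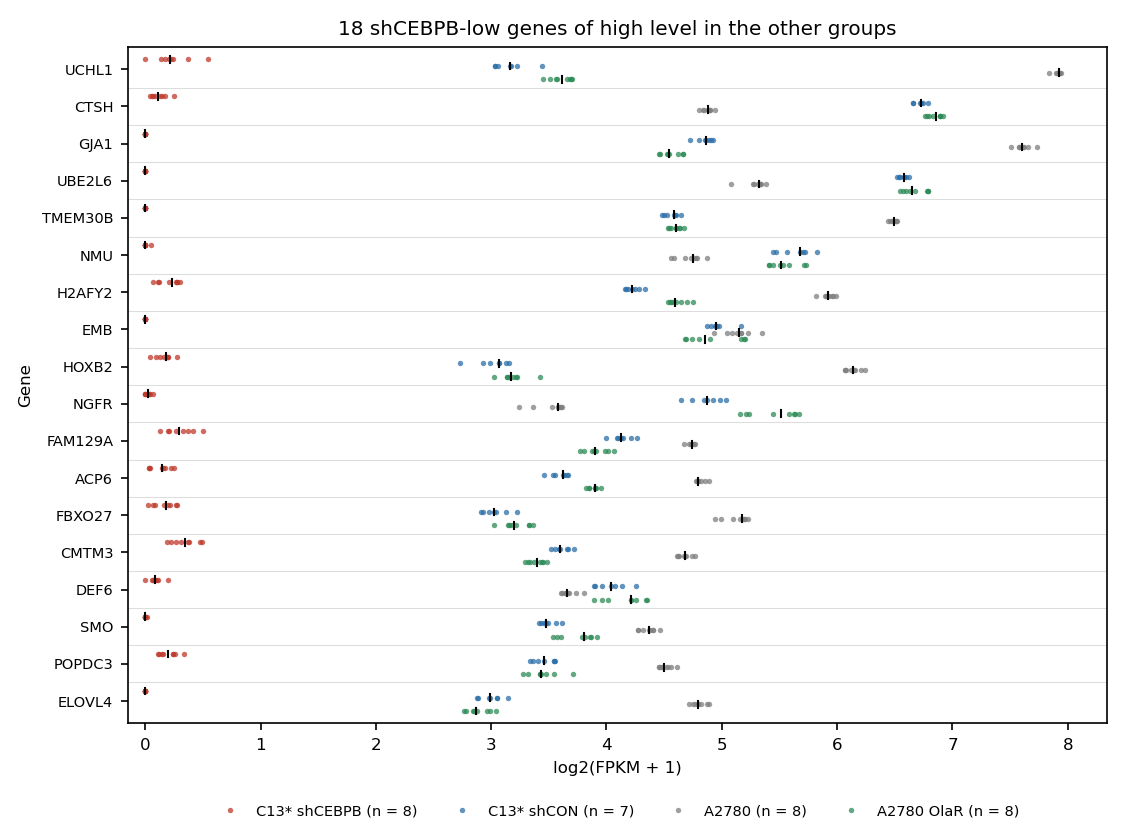
Points are libraries and black ticks group medians of log2(FPKM + 1) (x axis) for 18 shCEBPB-low genes of high level in the other groups (y axis), coloured by group. The red shCEBPB points stay below 0.6 on this scale, and for most genes shCON and A2780 OlaR lie close to each other while A2780 lies above or below both.

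Other shCEBPB-low genes cover proteolysis, chromatin and patterning. CTSH, a lysosomal cathepsin, had at most 0.192 FPKM in shCEBPB and medians of 105 in shCON, 28.5 in A2780 and 115 in A2780 OlaR. H2AFY2 (now MACROH2A2), a histone variant, had at most 0.231 FPKM against medians of 17.6, 59.5 and 23.1, and it shares 986 bp with AIFM2 on the opposite strand. HOXB2, a homeobox gene of anterior patterning, had at most 0.212 FPKM against medians of 7.40, 69.2 and 7.99. In the rest of the HOXB cluster HOXB1 was listed at 0 in shCEBPB and was at most 0.291 FPKM in any library. HOXB4 had medians of 0.0506 in shCEBPB, 1.67 in shCON and 13.9 in A2780, and HOXB8 had 0.163, 0.686 and 10.7. HOXB3 was at medians of 0.942 in shCEBPB, 6.82 in shCON and 28.7 in A2780, and HOXB7 at 7.48, 15 and 23.2. HOXB9 was at 3.94, 6.12 and 39.7 in these groups, and HOXB13 at 3.24, 3.19 and 8.37. In A2780 OlaR their medians were 4.24 and 4.13, so these genes did not all fall in shCEBPB against every group. Only HOXB2 of this cluster met the rule. ELOVL4, which elongates very long fatty acids, was listed at 0 in shCEBPB against 5.81 to 28.6 FPKM. FAM129A, ACP6, FBXO27, CMTM3, DEF6, POPDC3 and PRSS16 had medians of 0.0614 to 0.278 FPKM in shCEBPB and of 6.44 to 35.1 in the other groups. IRX4, TDRP, SLC16A14, TMEM25, ADD2 and WASF3 had 5.50 to 15.5 FPKM in the other libraries.

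The thresholds cut through a continuous range. The lowest shCEBPB library was at 5.38 FPKM for UBD, 5.44 for OR51B4 and 5.45 for RASGEF1B just inside the limit, and at 4.69 for EYA4, 4.39 for MUC5AC and 4.37 for ADGRE2 just outside. The highest other library was at 0.475 FPKM for ACKR3 and 0.462 for WISP2 inside, and at 0.505 for SLC38A5, 0.507 for TMEM47 and 0.518 for FZD10 outside. On the low side, WASF3, PRSS16 and HOXB2 had 5.50, 5.61 and 5.65 FPKM in their lowest other library, and ICA1, ZNF354C and PLEKHB1 had 4.97, 4.94 and 4.86. APOBEC3F, PRSS16 and TMEM25 reached 0.485, 0.484 and 0.465 FPKM in a shCEBPB library, and DUSP6, PPP2R2C and REEP2 reached 0.532, 0.537 and 0.585.

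Within the 8 shCEBPB libraries the shCEBPB-high genes varied with a median coefficient of variation of 12.9% (2.22% to 54.1%), against 11.1% over the 7922 genes at 5 FPKM or more in every shCEBPB library. Libraries 1 to 3 stood apart from libraries 4 to 8, as for CEBPB. In 23 of the 76 genes all of libraries 1 to 3 were above all of libraries 4 to 8, and in 24 all were below, against 29% and 29.8% of the 7922 genes. Large shifts were seen in C14orf180 (mean 6.93 FPKM in libraries 1 to 3 and 19.6 in 4 to 8, log2 ratio 1.5) and C11orf86 (21.4 and 43.1, 1.01), and on the other side in OR51B4 (13.9 and 7.28, -0.93). CGA fell by 0.56 on the log2 scale, from 702 to 477 FPKM, and PDK4 by 0.75, from 110.5 to 65.9. The labels give no batch for these library numbers.

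The genes around the members were not used by the rule. Of 154 tested non-members within 100 kb of a shCEBPB-high gene, 61 (39.6%) were higher in shCEBPB against all 3 groups and 26 (16.9%) lower, where 20.4% and 28.4% of all tested non-members were. Of 90 such neighbours of shCEBPB-low genes, 15 (16.7%) were higher and 38 (42.2%) lower. Neighbours share exons, families or reads with members in some cases, as GSTM2 and GSTM4 do, and these counts carry no test. A neighbour that passed the expression filter through shCEBPB alone had its call as higher fixed in advance, and such genes were not counted apart. In promoter composition the sets also differed in their values, since the median ratio of observed to expected CpG over 250 bases upstream was 0.377 in the windows of shCEBPB-high genes, 0.746 in those of shCEBPB-low genes and 0.718 over all genes. A ratio of 0.6 or more, as in CpG islands, was found in 38.9%, 72.7% and 61.0% of these windows. The CGA and ALPI promoters printed above, with ratios of 0.363 and 0.235, are of the CpG-poor kind, and DNA methylation was not measured.

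Pathway genes were taken from 15 fixed lists, with members counted apart. The folate, urea cycle, mineralization, BMP and TGF-beta, FGF, retinoid, pluripotency, imprinted and steroid hormone lists held no member. Over all lists and the 6 marker lists, 291 non-member genes were tested, each counted once, and 87 (29.9%) were higher and 64 (22%) lower in shCEBPB against all 3 groups, beside 20.8% and 28.4% of all genes tested. A gene above the expression filter in shCEBPB alone passes through that group, so its call as higher was fixed in advance. PSG1, SOX17, IGFBP1, IGFBP4, BMP6, KCNQ1, PDGFRB, MUC5AC, RARRES1 and CYP11A1 were among the genes that entered the counts of higher genes in this way. The counts of the lists are therefore a description. Complement components and regulators had 11 of 15 tested non-members higher and 1 lower, with median log2 fold changes of 0.94, 1.04 and 1.35 against shCON, A2780 and A2780 OlaR, where the medians over all genes were -0.07, -0.15 and -0.05. C3, the central component, had a median of 119 FPKM in shCEBPB and 4.91, 2.81 and 5.41 in these groups (log2 fold changes 4.33, 5 and 4.22, SE 0.06 each), and CD55, which protects host cells, was higher by 3.96, 2.24 and 4.37 on the log2 scale (SE 0.09 each). C2 was the gene lower against all (-1.74, -0.70 and -1.62, SE 0.05 each).

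In the list of folate uptake and one-carbon metabolism 8 of 24 tested genes were higher and 2 lower. FOLR1, the folate receptor of ovarian carcinomas, had a median of 878 FPKM in shCEBPB against 1.26, 14.0 and 0.866 (log2 fold changes 8.67, 5.96 and 8.88, SE 0.10 each). In the insulin-like growth factor axis, the list of IGFBP7, 4 of 11 non-members were higher and 1 lower. IGFBP4 had a median of 91.3 FPKM in shCEBPB against 0.329, 0 and 0.832, while IGFBP2 was listed at 0 in shCEBPB. IGFBP4 was at most 0.962 FPKM elsewhere, so it passed the filter through shCEBPB alone and its call is no test. The hormone list of CGA had 3 of 9 non-members higher and 3 lower, with the pregnancy-specific glycoproteins PSG4 and PSG1 higher and CGB7, a beta subunit that pairs with CGA, lower (-2.13, -2.74 and -1.34, SE 0.11 each). The mucin list of MUC13 had 3 of 7 higher and 3 lower, and MUC1 rose by 4.96, 2.84 and 4.95 (SE 0.10 each). In the urea cycle list 7 of 21 were higher and 6 lower, with CPS1, the entry enzyme, at a median of 241 FPKM against 0.590, 1.32 and 0.781. BMP and TGF-beta genes were higher in 13 of 32 and lower in 6, among them BMP6 and ENG upward and GDF15 and ID4 downward. BMP6, at most 0.965 FPKM elsewhere, passed the filter through shCEBPB alone. FGF genes were higher in 4 of 19 and lower in 7, and DUSP6, a feedback phosphatase of this pathway, fell by 3.73, 6.71 and 3.77 on the log2 scale (SE 0.04 each).

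In the other lists the counts of higher and lower genes were as follows: mineralization (3 and 4 of 12), retinoid genes (5 and 5 of 18), neuronal genes, the list of UCHL1 (4 and 3 of 15), steroid hormone genes (4 and 3 of 11), imprinted genes (6 and 3 of 20) and cancer-testis antigens (1 and 0 of 4). Regulators of pluripotency and early germ layers were higher in 3 of 20 and lower in 8, with FOXA1 at a median of 0.427 FPKM in shCEBPB and 23.9, 18.5 and 36.3 in shCON, A2780 and A2780 OlaR. L1CAM, a neuronal adhesion molecule, had a median of 108 FPKM against 0.324, 8.76 and 0.314.

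Marker lists of the cell types that such cultures could hold were read in the same way. Summed FPKM of 18 ovarian and Müllerian markers were 1005 to 1112 in shCEBPB, 198 to 208 in shCON, 42.4 to 47.3 in A2780 and 196 to 216 in A2780 OlaR, and FOLR1 made up most of the sum in shCEBPB. PAX8, a defining factor of this epithelium, had medians of 0.529, 6.20, 0.590 and 5.94 FPKM in these groups, and PAX2, WFDC2, PGR and KLK7 were listed at 0 in every shCEBPB library. PGR was also at 0 in every shCON and A2780 OlaR library, PAX2 was at most 0.0510 there, and WFDC2 had a median of 40.2 in both. MSLN and SOX17 went the other way, with medians of 162 and 1.99 FPKM in shCEBPB against 31.6 and 0 in shCON. Of 13 ovarian markers tested, 3 were higher and 4 lower against all 3 groups. Squamous and basal markers summed to 320 to 693 FPKM in shCEBPB, 3648 to 4614 in shCON, 9.20 to 17.5 in A2780 and 3736 to 5000 in A2780 OlaR. Among 17 of them tested, 1 was higher and 2 were lower against all 3 groups. Their median log2 fold changes were -4.18 against shCON, 0.04 against A2780 and -4.43 against A2780 OlaR. KRT17, SFN and TRIM29, with medians of 262, 139 and 119 FPKM, made up most of the shCEBPB sum. Trophoblast markers summed to 719 to 1028 FPKM in shCEBPB with CGA, which the rule itself chose. Without CGA, 18 markers summed to 283 to 361 FPKM in shCEBPB, 77.0 to 80.6 in shCON, 20.7 to 25.1 in A2780 and 82.2 to 90.1 in A2780 OlaR. ALPP made up much of the shCEBPB sum, with 4 of 6 tested non-members higher and 0 lower by limma, while CDX2, ELF5, CSH1, XAGE2, PAGE4 and LGALS13 were at 0 in every shCEBPB library. PSG1, among the 4, passed the filter through shCEBPB alone (2.17 to 4.71 FPKM, at most 0.402 elsewhere). CGB5 was not tested, and it had medians of 0 in shCEBPB, 0.951 in shCON, 0.339 in A2780 and 0.594 in A2780 OlaR. Mesenchymal markers summed to 462 to 521 FPKM in shCEBPB, 62.6 to 78.3 in shCON and A2780 OlaR, and 1314 to 1399 in A2780, with 3 of 18 higher and 3 lower. VIM made up most of the sum in shCEBPB and A2780, with medians of 342 and 808 FPKM. Endothelial markers summed to 40.7 to 72.5 FPKM in shCEBPB, 7.64 to 11.3 in shCON, 42.7 to 62.3 in A2780 and 10.6 to 16.3 in A2780 OlaR. EGFL7 made up most of these sums, with medians of 47.8, 6.05, 49.7 and 9.80 FPKM. Haematopoietic markers summed to 12.3 to 15.5, 64.4 to 72.0, 80.1 to 105 and 39.9 to 47.4 FPKM in the same order. CD68 made up most of the sum in shCEBPB, shCON and A2780 OlaR, with medians of 11.8, 64.3 and 41.5 FPKM. PTPRC made up most of it in A2780, with a median of 83.5 FPKM and at most 0.0144 elsewhere. CD3E, CD3D, MS4A1 and CD163 were at 0 in shCEBPB, and CD3E and CD3D were at 0 in every other group too. The part of other cells in the levels of the 110 genes was not tested.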

How the data were processed

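mRNA of 31 libraries of cell lines in 4 groups was analysed, with groups and replicate numbers from the sample labels. The values the authors deposited are FPKM in a table of all libraries. The submitters' processing notes name TopHat, FastQC, edgeR and the build hg38, and the study counted reads with HTSeq. The annotation, the tool behind the FPKM and the use of strand are not given in the sources used here. Of 19225 entries, 4 with 2 repeated symbols were left out, and 23 symbols turned into dates were kept and not named.

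The 110 genes, the gene lists and the tests were chosen with earlier results of these data known. limma 3.58.1 in R 4.3.3 (lmFit, eBayes with trend, two-sided, Benjamini-Hochberg) was fitted to log2(FPKM + 1) of all 4 groups for the 12967 genes that reached FPKM 1 in 7 or more libraries, and an adjusted p under 0.05 was a call. The step was tested on simulated data. Fold changes on this scale understate the change of low genes. Relative depth came from 1274 genes under 0.1 FPKM in all libraries. Positions and overlaps are from GENCODE 44, which matched 98.8% of genes and all 110. The other steps ran in Python 3.11.15 (pandas 2.3.3 for tables, numpy 2.4.6 for arithmetic and the exact permutation test, matplotlib 3.10.9 for plots).

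Named genes were CEBPB, the 20 leading genes of each set, members on a fixed list, up to 2 higher and 2 lower genes of each list, marker genes and the 3 genes on each side of a threshold. Some genes that these rules name are not reported here. Families and neighbours of members were added after the values were seen. Alternatives were other thresholds, group medians, pseudocounts of 0.1 and 0.01, other filters, a common sum, quantile normalization, separate fits, the replicate block, library ranges, a stricter adjusted p, a fold change of at least 2 and leaving out each shCEBPB replicate, and, chosen after the data were seen, leaving out shCON replicate 1.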

Additional observations from a re-analysis of the deposited data

Results flagged for a closer look

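Among the genes named by rule, 85 combinations of gene and group with a mean of at least 1 FPKM were screened for a library far from the others of its group, and 5 had one, where chance gives about 1 in 20. UCHL1 was at 9.84 FPKM in shCON replicate 1, the library with A2780 in its cell line field, and the next shCON library was at 8.33. UCHL1 was also at 228 in A2780 replicate 7, the lowest of that group, with the next at 238. UBE2L6 was at 32.8 in A2780 replicate 8, below the next at 37.6. EMB was at 34.9 in shCON replicate 4, above the next at 30.4. HOXB2 was at 9.73 in A2780 OlaR replicate 4, above the next at 8.36. None of these libraries came near the level of shCEBPB for its gene.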

How the results depend on the processing

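Of 225 recomputed values, 211 kept their direction and their side of the threshold, or stayed within 1.5 times for counts. Other thresholds moved the counts of members, by their construction: the 76 shCEBPB-high genes became 120 with a high side of 2 FPKM and 30 with a low side of 0.1, and the 34 shCEBPB-low genes became 111 and 12 with high sides of 2 and 10, 16 and 53 with low sides of 0.1 and 1, and 59 with group medians. Quantile normalization gave 87 and 28, with 76 and 27 of the genes shared. Requiring a fold change of at least 2 left 3585, 4783 and 3542 calls against shCON, A2780 and A2780 OlaR, 740 higher and 788 lower against all 3, and 73 list genes, and CEBPB at -0.87 against shCON then missed that fold. Leaving out a shCEBPB replicate gave 76 to 77 shCEBPB-high and 34 to 37 shCEBPB-low genes, and CEBPB between -0.92 and -0.78, -1.13 and -1, and -1.29 and -1.16. The labels tie same-numbered libraries of different groups by number alone. Their deviations correlated on average with r = -0.14, -0.24 and 0.48 with shCON, A2780 and A2780 OlaR. Libraries of other numbers gave 0.02, 0.04 and -0.06. The 8 pairs with A2780 OlaR ranged from 0.09 to 0.72, and 0, 0 and 2 libraries correlated best with their own number. What same-numbered shCEBPB and A2780 OlaR libraries have in common was not tested. With the replicate block 10885, 11409 and 10952 genes were called, and CEBPB kept its call in each comparison. Without shCON replicate 1 there were 76 and 34 genes. FPKM give no reads, so low values cannot be weighed by their counts.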
